A study of Homo sapiens with 6 samples.

Results

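Some entries of miRNA catalogues have sequences that also occur in, or closely resemble, pieces of transfer RNA (tRNA), ribosomal RNA (rRNA) or small nuclear RNA (snRNA). The entries examined were the rows of the deposited miRNA table that bear 1 of 10 names, hsa-miR-1246, hsa-miR-1260a, hsa-miR-1260b, hsa-miR-1290, hsa-miR-1291, hsa-miR-3656, hsa-miR-4286, hsa-miR-4532, hsa-miR-7641 and hsa-miR-7977, with any arm suffix. The table held 8 of the 10, among 787 rows in all, and miR-1290 and miR-1291 were not analysed here. The libraries came from A549, an epithelial cell line long established from a human lung adenocarcinoma, 48 h after lipid transfection. In 3 libraries the cells had received pcDNA4-SMARCA4, which the labels call a restoration of SMARCA4, the SWI/SNF chromatin remodelling ATPase also known as BRG1. In the other 3 they had received the empty vector pcDNA4. All 6 libraries thus share the cell line, the plasmid backbone and the transfection. Expression from a transfected plasmid can differ from cell to cell, and SMARCA4 mRNA itself was not analysed here.

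A mature miRNA is normally cut from a hairpin precursor by Drosha and Dicer and then loaded into an Argonaute protein, where bases 2 to 8, the seed, guide it to target mRNAs. tRNAs, rRNAs and snRNAs are far more abundant in cells, and their breakdown or processing yields fragments of miRNA size. A mature tRNA ends in CCA, which an enzyme adds after transcription, so 3′ tRNA fragments carry these bases. A small RNA library built by adapter ligation takes up such fragments together with miRNAs, and a count table lists them under whichever miRNA name their sequence matches. Reads counted under these names can therefore come from the hairpin or from the other RNA, and the table does not tell the sources apart.

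Mature sequences of 4 of the 8 entries were given by RefSeq (GRCh38.p14). They are shown because the 3′ ends and seeds group the entries, with the seed in capitals.
miR-1260a: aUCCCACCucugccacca
miR-1260b: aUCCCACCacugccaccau
miR-7977: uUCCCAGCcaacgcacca
miR-1246: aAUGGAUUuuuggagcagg

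miR-1260a and miR-1260b shared the seed UCCCACC, which no other row with a RefSeq sequence had. Counted from the 5′ end, miR-1260b differed from miR-1260a by the substitution U9A and by 1 further base at its 3′ end. The seed of miR-7977 differed from that of miR-1260a by C7G. miR-1260a and miR-7977 ended in CCA, and in miR-1260b the same 3 letters were followed by a U. Of 689 rows with a RefSeq sequence, 8 (1.16%) ended in CCA. The 3 most abundant of these were miR-7977, miR-4454 and miR-1260a, with means over the 6 libraries of 538, 363 and 359 normalized counts, and the other 5 had means of at most 4.31. All 4 sequences printed above were 18 or 19 bases long, whereas the median over the 689 rows was 22 bases and 31 rows (4.50%) had at most 19.

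The whole of miR-1246 was found, on the same strand, in 19 annotated snRNA transcripts of GENCODE 29, among them RNU2-1. RNU2-1 encodes U2, the snRNA that pairs with the branch point of introns in the spliceosome. The stretch of RNU2-1 at chr17:43233856-43233894 (GRCh38, minus strand) is shown with the 19 bases of miR-1246 in capitals, which lie at positions 94 to 112 of the 191-base transcript, and with 10 bases on each side.
RNU2-1: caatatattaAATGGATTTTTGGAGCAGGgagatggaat
Across the 689 mature sequences, 7 lay wholly inside 1 of 5722 annotated RNAs of other classes, which include rRNA, snRNA, snoRNA and mitochondrial RNA but no nuclear tRNA. The 3 most abundant of the 7 were miR-4485-3p in the mitochondrial rRNA MT-RNR2, miR-3651 in the small nucleolar RNA SNORA84 and miR-664a-3p in SNORA36B. A match says that a read of this sequence has more than one possible source and does not say which one gave it.

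The annotated hairpins, other than that of miR-4286, whose position was not analysed here, lay in varied settings (GENCODE 29, GRCh38). MIR7641-2 (chromosome 14, 75604209 to 75604261, plus strand) lay wholly inside the 5S rRNA pseudogene RNA5SP387 (75604173 to 75604278) on the same strand, within an intron of FLVCR2. The second hairpin of the same miRNA, MIR7641-1 (chromosome 11, 104252591 to 104252651, plus strand), overlapped no other annotated gene. MIR1260A (chromosome 14, 77266218 to 77266290, plus strand) lay opposite an exon of NGB, and MIR1260B (chromosome 11, 96341438 to 96341526, plus strand) lay opposite an exon of MAML2. MIR3656 (chromosome 11, 119018944 to 119019012, plus strand) lay within an annotated exon of TRAPPC4 on the same strand. MIR1246 (chromosome 2, 176600980 to 176601052, minus strand), MIR4532 (chromosome 20, 57895394 to 57895444, plus strand) and MIR7977 (chromosome 3, 176515103 to 176515151, plus strand) overlapped no other gene.

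Values are normalized counts, which are read counts multiplied by 1 factor per library, and the reads behind them were recovered exactly. The libraries held between 701885 and 7274329 reads assigned to listed miRNAs. SMARCA4 replicate 2 was the deepest, with 8.33 times the mean of the other 5. Epithelial marker miRNAs were present for 6 of 7 names, with sums of 425 to 623 normalized counts in SMARCA4 libraries and 356 to 677 in empty vector libraries, and miR-21-5p, abundant in lung adenocarcinoma lines, reached 248288 to 466890 in SMARCA4 libraries and 334995 to 492585 in empty vector libraries. Of 8 blood markers 4 were present, with sums of 7964 to 14485 in SMARCA4 libraries and 5623 to 7213 in empty vector libraries, nearly all of it miR-486-5p, and of 2 neuron markers miR-9-5p was present, at 146 to 427 in SMARCA4 libraries and 139.5 to 145.5 in empty vector libraries. The groups did not overlap in either sum, and the part of either in the results below was not tested. The muscle markers miR-1-3p and miR-133a-3p were at 0 in every library.

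In short, the abundant tRNA-type and rRNA-type entries did not pass the test between SMARCA4 and empty vector cells, and neither did the 4 scarce ones. The largest fitted difference among the 8 was that of miR-4532, which was lower in all 3 SMARCA4 libraries on few reads. miR-1246, miR-7977 and miR-4286 had higher values in every SMARCA4 library than in any empty vector library. miR-1260b, the most abundant of the 8, had nearly equal means. The 8 entries were fitted together with all miRNAs by limma on log2(value + 1), and each adjusted p is over the 637 miRNAs whose mean over the 6 libraries was at least 1.

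**Figure D1:**
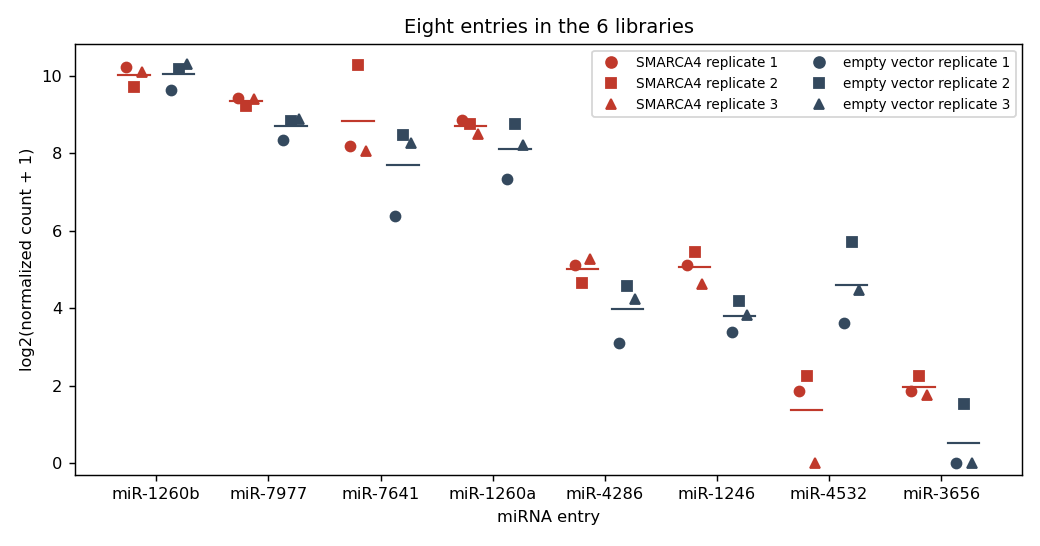
Each point is 1 library, with log2(normalized count + 1) on the vertical axis and the 8 entries, from the most to the least abundant, on the horizontal axis. Red points are SMARCA4 libraries, dark points are empty vector libraries, marker shapes give the replicate, and bars are group means of the log2 values. The SMARCA4 points lie above all empty vector points for miR-7977, miR-4286 and miR-1246 and below them for miR-4532, and the points of miR-3656 stand for 0 or 1 read in all but SMARCA4 replicate 2.

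All 8 entries passed the filter on low values, and miR-3656, with a mean of 2.93 in SMARCA4 cells and 0.634 in empty vector cells, passed it through its SMARCA4 values. None of the 8 (0) passed an adjusted p of 0.05 by limma, against 1.41% of all miRNAs tested, and 3 of the 8 had an unadjusted p under 0.05, against 22.6%. That count of 3 dropped to 1 under same-total scaling, while the count over all tested did not drop. With 1 library left out it lay between 1 and 6 of the 8, against 103 to 167 of all 637 tested. The 6 came from omitting empty vector replicate 2, where the count over all tested was below that with all 6 libraries. edgeR on the recovered reads also called 0 of the 8, against 8 of all 637 tested. DESeq2 called 1 of the 8, miR-4532, against 44 of the 637. Leaving miR-3656 aside, the groups did not overlap with SMARCA4 higher for 3 of 7 entries, where 15.9% of all tested did so, and with SMARCA4 lower for 1 of 7, where 15.2% did so. The median log2 fold change of the 8 was 0.85, and 0.65 without miR-3656, beside −0.05 for all tested. Rescaling the libraries to the same total lowered the median of all tested by 0.30 on the log2 scale (to −0.35), and no entry changed sign under that scaling or under median-of-ratios scaling.

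The name tRNA-type is used for miR-1260a and miR-7977 from background and from their CCA ends. For miR-1260b, whose CCA is followed by a U, it rests on background alone. The name was not checked against tRNA sequences here. The name rRNA-type likewise rests on background and, for miR-7641, on the setting of the hairpin MIR7641-2. No mature sequence of miR-7641 was at hand to compare with rRNA. miR-1260b had 1211, 837 and 1098 normalized counts in SMARCA4 replicates 1, 2 and 3, against 798, 1160.1 and 1270.5 in empty vector replicates 1, 2 and 3. The groups overlapped over most of their range, and the lowest value was that of empty vector replicate 1. The means were 1048 ± 192 in SMARCA4 cells and 1076 ± 247 in empty vector cells (SD, n = 3 each), with a log2 fold change of −0.03 (SE 0.30, 95% interval −0.69 to 0.64, limma adjusted p = 0.965). The interval does not show that the levels were equal.

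miR-1260a, which shares its seed, had 468, 434 and 364 normalized counts in SMARCA4 replicates 1, 2 and 3, against 162, 429.8 and 298 in empty vector replicates 1, 2 and 3. Empty vector replicate 1 was again the lowest, and empty vector replicate 2 lay within the SMARCA4 range. The log2 fold change was 0.61 (SE 0.38, 95% interval −0.25 to 1.47, limma adjusted p = 0.366), and without empty vector replicate 1 it was 0.23. The counts of these 2 entries depend on how reads that fit both, or fit a tRNA, were assigned, a step that the labels do not record.

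miR-7977, which like miR-1260a ends in CCA, had 688, 602 and 675 normalized counts in SMARCA4 replicates 1, 2 and 3, against 326, 460.2 and 477 in empty vector replicates 1, 2 and 3. Every SMARCA4 library lay above every empty vector library, and the SMARCA4 values were the closer together, at 655 ± 46.3 against 421 ± 82.8 (SD, n = 3 each). The log2 fold change was 0.65 (SE 0.28, 95% interval 0.02 to 1.28), with an unadjusted p of 0.0436 and a limma adjusted p of 0.201. With libraries rescaled to the same total it was 0.33, and without empty vector replicate 1 it was 0.48.

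Ratios between entries within a library do not depend on how libraries were scaled. The ratio of miR-7977 to miR-1260b was 0.568, 0.719 and 0.615 in SMARCA4 replicates 1, 2 and 3, against 0.409, 0.397 and 0.376 in empty vector replicates 1, 2 and 3. The 2 groups of ratios did not overlap. The ratio of miR-1260a to miR-1260b was 0.387, 0.518 and 0.331 in SMARCA4 libraries, against 0.203, 0.370 and 0.234 in empty vector libraries, and here the groups overlapped. These pairs were chosen after their values had been seen, so the ratios carry no test.

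miR-7641, the entry with a hairpin inside a 5S rRNA pseudogene, varied most among the abundant entries. It had 293, 1236 and 267 normalized counts in SMARCA4 replicates 1, 2 and 3, against 83.0, 354 and 309 in empty vector replicates 1, 2 and 3. SMARCA4 replicate 2 stood far above the rest and empty vector replicate 1 far below. Of the other 4 libraries, both of the SMARCA4 group lay below both of the empty vector group, opposite to the difference of the means. The highest library held 14.9 times the lowest, where the corresponding ratio was 1.59 for miR-1260b, 2.11 for miR-7977 and 2.89 for miR-1260a. The means were 598 ± 552 in SMARCA4 cells and 249 ± 145 in empty vector cells (SD, n = 3 each), with a log2 fold change of 1.13 (SE 0.70, 95% interval −0.44 to 2.70, limma adjusted p = 0.353). Without SMARCA4 replicate 2 the log2 fold change was 0.42, and without empty vector replicate 1 it was 0.47.

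miR-1246, the entry contained in U2 snRNA, was scarce. It had 34.0, 43.1 and 23.6 normalized counts in SMARCA4 replicates 1, 2 and 3, from 13, 102 and 10 reads, against 9.43, 17.1 and 13.1 in empty vector replicates 1, 2 and 3, from 5, 9 and 8 reads. The groups did not overlap, and the closest values were those of SMARCA4 replicate 3 and empty vector replicate 2. The means were 33.6 ± 9.75 in SMARCA4 cells and 13.2 ± 3.85 in empty vector cells (SD, n = 3 each), with a log2 fold change of 1.28 (SE 0.46, 95% interval 0.24 to 2.32). The unadjusted p was 0.0210 and the limma adjusted p was 0.142. Whether the reads came from the chromosome 2 hairpin or from U2 RNA cannot be told apart in this table.

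miR-4286 had 34.0, 24.1 and 37.8 normalized counts in SMARCA4 replicates 1, 2 and 3, against 7.54, 22.8 and 18.0 in empty vector replicates 1, 2 and 3. The groups did not overlap, but SMARCA4 replicate 2 and empty vector replicate 2 were nearly level. The log2 fold change was 1.05 (SE 0.51, 95% interval −0.11 to 2.20, limma adjusted p = 0.248), and without empty vector replicate 1 it was 0.61. miR-3656 had 1, 9 and 1 reads in SMARCA4 replicates 1, 2 and 3 and 0, 1 and 0 reads in empty vector replicates 1, 2 and 3. SMARCA4 replicates 1 and 3 and empty vector replicate 2 each held 1 read, so the order of their normalized counts is only that of the library factors. Only the deepest library had more than the 3.69 reads that the exact 95% Poisson interval of a count of 0 reaches, so no fold change is given for miR-3656.

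miR-4532 went the other way. It had 2.61, 3.80 and 0 normalized counts in SMARCA4 replicates 1, 2 and 3, from 1, 9 and 0 reads, against 11.3, 51.3 and 21.3 in empty vector replicates 1, 2 and 3, from 6, 27 and 13 reads. All SMARCA4 libraries lay below all empty vector libraries, and within the empty vector group replicate 2 was the highest. In SMARCA4 replicate 2 the 9 reads have an exact 95% Poisson interval of 1.74 to 7.22 normalized counts, and the 6 reads of empty vector replicate 1 one of 4.15 to 24.6, so these 2 libraries overlap within counting error, which is all that such intervals cover. In SMARCA4 replicate 3 the same kind of interval for 0 reads reaches 8.71 normalized counts. The mean was 2.14 ± 1.95 in SMARCA4 cells and 28.0 ± 20.8 in empty vector cells (SD, n = 3 each).

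The log2 fold change of miR-4532 was −3.23 (SE 0.78, 95% interval −4.99 to −1.47), with an unadjusted p of 0.00245 and a limma adjusted p of 0.0656. The difference thus missed the threshold. It passed by DESeq2 (adjusted p = 0.0166) and by limma without SMARCA4 replicate 2 (adjusted p = 0.0456), and over all alternatives its adjusted p ranged from 0.0166 to 0.175. Its size depends on the constant added before taking logs, at −2.06 with 5 and −3.65 with 0.5, because so few reads lie behind the SMARCA4 values. On the recovered reads edgeR gave −3.27 (adjusted p = 0.0711).

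**Figure D2:**
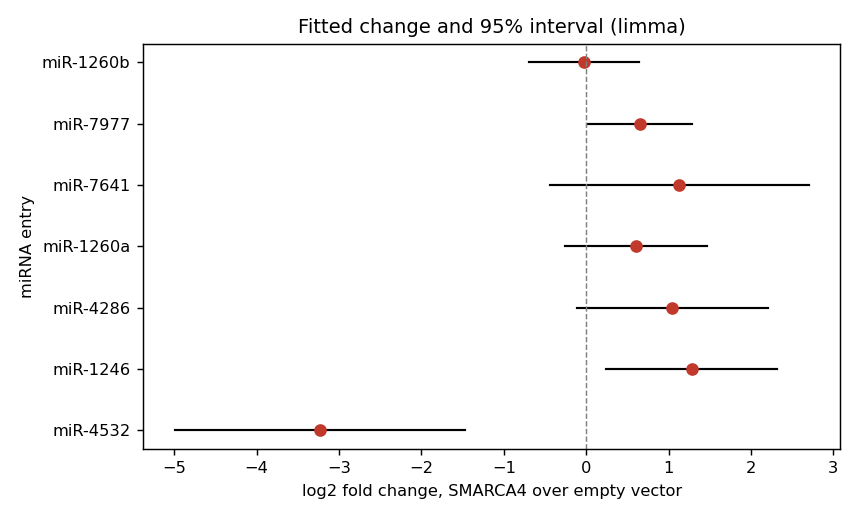
Points are log2 fold changes of SMARCA4 over empty vector from the fit across all miRNAs, and lines are their 95% intervals, for the entries other than miR-3656, ordered from the most abundant at the top. The intervals of miR-7977, miR-1246 and miR-4532 leave out 0, those of miR-1260b, miR-7641, miR-1260a and miR-4286 include it, and none passed after adjustment.

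Together the 8 entries took up a small part of each library. Their reads were 0.149%, 0.104% and 0.136% of the total in SMARCA4 replicates 1, 2 and 3, with exact (Clopper-Pearson) 95% intervals of 0.140 to 0.158%, 0.101 to 0.106% and 0.128 to 0.145%. In empty vector replicates 1, 2 and 3 they were 0.0841%, 0.141% and 0.136%, with intervals of 0.0781 to 0.0903%, 0.133 to 0.148% and 0.129 to 0.143%. The groups overlapped, at 0.130 ± 0.0234% and 0.120 ± 0.0315% (SD, n = 3 each). Empty vector replicate 1 had the lowest share.

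The make-up of those reads differed most in 1 library. miR-7641 supplied 10.7%, 38.8% and 10.8% of them in SMARCA4 replicates 1, 2 and 3, against 5.94%, 14.2% and 12.8% in empty vector replicates 1, 2 and 3. miR-1260b supplied 44.3%, 26.3% and 44.5% in SMARCA4 libraries, against 57.1%, 46.5% and 52.8% in empty vector libraries. The miR-1260b share was thus lower in every SMARCA4 library, although its own level overlapped between the groups.

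**Figure D3:**
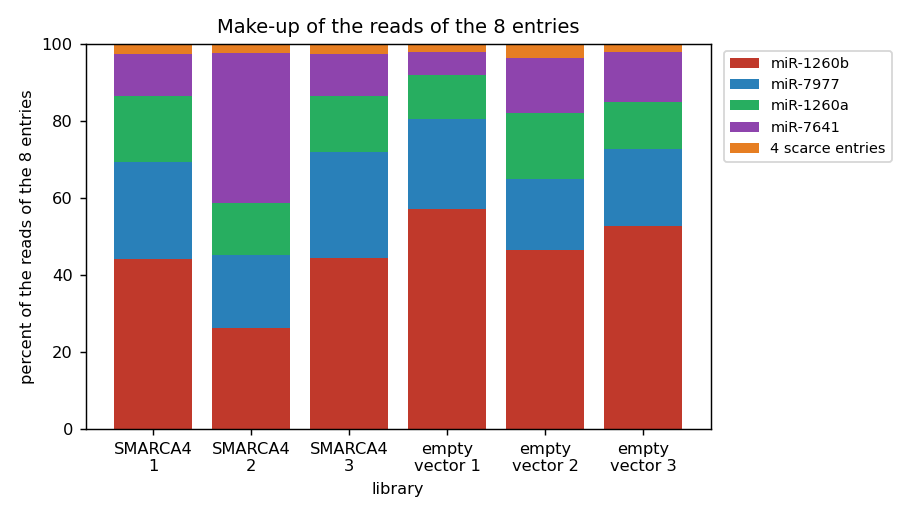
Each bar is 1 library and splits the reads of the 8 entries into miR-1260b, miR-7977, miR-1260a, miR-7641 and the 4 scarce entries, in percent. The miR-7641 part reaches 38.8% in SMARCA4 replicate 2 and stays between 5.94% and 14.2% in the other libraries.

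The entries did not all follow 1 course over the libraries. Likeness was measured as the root mean square difference of log2(value + 1) over the 6 libraries, each miRNA centred on its own mean, against 420 other miRNAs with a mean of at least 10. The nearest to miR-7977 were miR-4454, at 0.13, and miR-5100, at 0.14, followed by let-7b-5p at 0.17, where the median distance was 0.68. miR-4454 and miR-5100 were the 2 rows present from a list of entries that resemble tRNA. They are shown with the last 3 bases of miR-4454 and the seed of miR-5100 in capitals.
miR-4454: ggauccgagucacggcaCCA
miR-5100: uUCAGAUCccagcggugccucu
miR-4454 had 502, 343 and 467 normalized counts in SMARCA4 replicates 1, 2 and 3, against 207, 299 and 359.7 in empty vector replicates 1, 2 and 3. Its ratio to miR-1260b was 0.415, 0.410 and 0.426 in SMARCA4 libraries and 0.260, 0.257 and 0.283 in empty vector libraries, without overlap. Since miR-4454 is named for its likeness to miR-7977, this ratio is not independent of that of miR-7977 and carries no test. miR-5100 had 188, 160.1 and 212 in SMARCA4 libraries against 115, 139 and 159 in empty vector libraries. Neither row passed the test (limma adjusted p = 0.280 for miR-4454 and 0.412 for miR-5100).

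The other tRNA-type entries had other neighbours. Those of miR-1260a were miR-18a-3p, miR-1247-3p and miR-4461, at 0.27 to 0.29, with miR-7977 the next at 0.30. Those of miR-1260b were miR-1254, miR-660-5p and miR-502-3p, at 0.20 to 0.23, and miR-1260a came only as its 82nd neighbour, at 0.45. The pair that shares a seed therefore differed more over these libraries than miR-1260a and miR-7977 did.

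The neighbours of miR-7641 were miR-6765-3p at 0.35, miR-3960 at 0.38 and miR-6087 at 0.39, where the median was 1.21. miR-6087 was 1 of 2 tested rows from a list of entries that resemble rRNA or its spacers, the other being miR-3687. In SMARCA4 replicate 2 miR-7641 was at 4.73 times, miR-6087 at 5.64 times and miR-3687 at 5.20 times the mean of the other 5 libraries. The mitochondrial rRNA entry miR-4485-3p was at 2.98 times, the small nucleolar RNA entry miR-3651 at 2.57 times, miR-1246 at 2.22 times and miR-3609 at 2.17 times. miR-4461, also listed as mitochondrial, was at 1.26 times. The rest of the small nucleolar RNA list was lower there, with miR-664a-5p at 0.648, miR-3607-3p at 0.193, miR-664a-3p at 0.0455 and miR-664b-3p at 0 times. Of the scarce entries, miR-4286 was at 1.00 times and miR-4532 at 0.220 times. miR-1260a was at 1.26 times, miR-7977 at 1.15 times, miR-5100 at 0.985 times, miR-4454 at 0.936 times and miR-1260b at 0.756 times, with a median of 0.991 over all tested. By this ratio miR-6087, miR-3687 and miR-7641 ranked 31, 33 and 43 of 637, and SMARCA4 replicate 2 was the highest library for 27.2% of all tested rows. SMARCA4 replicate 2 was also the deepest library, and the part of depth in these ratios was not tested. By a chi-square per degree of freedom on the recovered reads, which also grows with depth, it differed from SMARCA4 replicates 1 and 3 by 356 and 363. SMARCA4 replicates 1 and 3 differed from each other by 6.61, and the empty vector libraries among themselves by 24.6 to 174.

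Among the scarce entries, miR-1246 was nearest to miR-1299, miR-106b-3p and miR-3195, at 0.24 to 0.26. miR-4286 was nearest to miR-503-5p at 0.31, miR-1260a at 0.35 and miR-4454 at 0.36. miR-4532 had no close neighbour, and its nearest were miR-222-5p at 0.96, the small nucleolar RNA entry miR-3607-3p at 0.97 and miR-152-5p at 0.99.

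**Figure D4:**
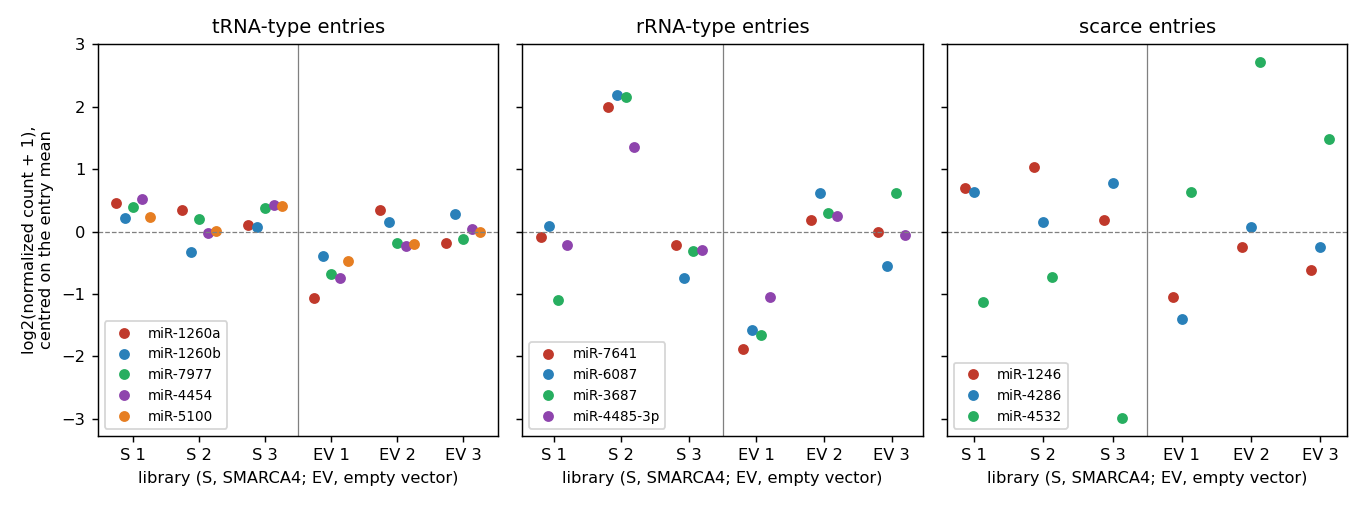
Points are log2(normalized count + 1) in each library minus the mean of that entry over the 6 libraries, for tRNA-type entries (left), rRNA-type entries with the mitochondrial miR-4485-3p (middle) and scarce entries (right). All of the entries plotted except miR-4532 lie below their own mean in empty vector replicate 1, and the 4 rRNA-type entries reach their highest value in SMARCA4 replicate 2.

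Empty vector replicate 1 was the lowest of the 6 libraries for 6 of the 8 entries, all but miR-4532 and miR-3656. It was also the lowest for 9 of the 12 tested rows of the further lists of other RNA classes, and for 14.6% of all miRNAs tested. Since it was the lowest library for these entries, leaving it out necessarily lowers their fold changes. Without it miR-1246 was at 1.07, miR-7977 at 0.48, miR-4286 at 0.61, miR-7641 at 0.47 and miR-1260a at 0.23 on the log2 scale. The labels give no batch, extraction date or RNA quality that would set this library apart.

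Further entries of other RNA classes were listed for comparison, 13 rows in all, of which 12 were tested. Of these 1 rose and 0 fell, where 6 of the 637 tested rose and 3 fell (1.41% called), 9 had a positive log2 fold change, where 48.4% of all tested did, and the median was 0.47, beside −0.05. The single one that rose was miR-3609, grouped here with small nucleolar RNA entries, which had 107, 74.8 and 56.7 normalized counts in SMARCA4 replicates 1, 2 and 3, against 0, 1.90 and 6.54 in empty vector replicates 1, 2 and 3 (limma adjusted p = 0.0124). Another of that class, miR-3607-3p, had 7.84, 5.91 and 2.36 in SMARCA4 libraries against 22.6, 112 and 8.18 in empty vector libraries, and did not pass (limma adjusted p = 0.161). The most abundant of that class were miR-3651 at 60.2 ± 41.2 in SMARCA4 cells against 42.7 ± 26.8 in empty vector cells, and miR-664a-3p at 55.6 ± 49.9 against 38.1 ± 22.5 (SD, n = 3 each), neither of which passed. Of the mitochondrial list, which was set by name, miR-4485-3p and miR-4461 had log2 fold changes of 0.57 and 0.43. Those of miR-3687 and miR-6087 of the rRNA list were 0.50 and 1.02, and none of these rows was called. Of the 266 other rows numbered 1000 and above, the catalogue range that holds all 8 entries, 185 were tested, 2 rose, 0 fell and the median was 0.09, where the values for all tested are those just given.

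**Figure D5:**
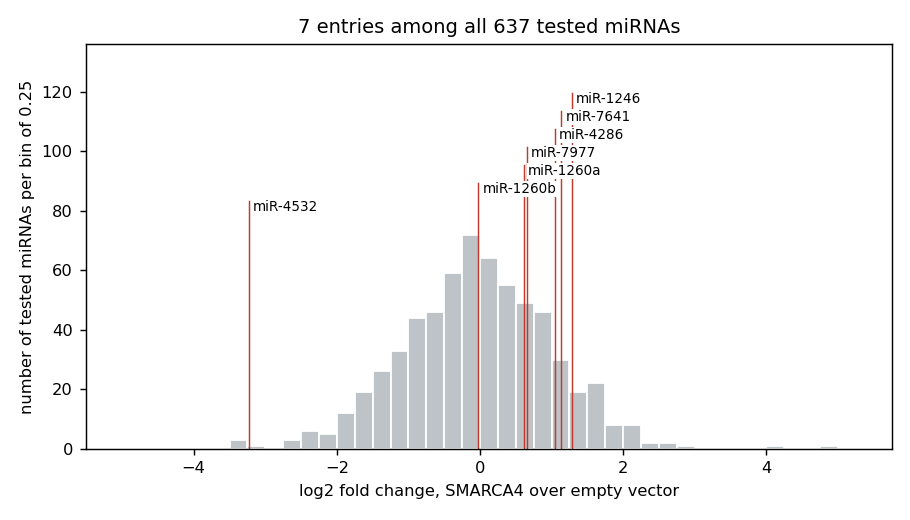
Grey bars count the 637 tested miRNAs by log2 fold change of SMARCA4 over empty vector, and red lines mark the entries other than miR-3656. miR-4532 lies in the lower tail, miR-1260b near 0, and miR-1260a, miR-7977, miR-4286, miR-7641 and miR-1246 between 0.61 and 1.28.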

How the data were processed

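Small RNA libraries of transfected A549 cells were compared, 3 from SMARCA4 and 3 from empty vector cells, grouped by sample title. Libraries were made with a TruSeq kit for small RNA, per the labels' protocols. The tool bcl2fastq 2.18.0.12 and the build GRCh38 are named in the submitters' processing notes. The aligner, the counter and the handling of reads with more than 1 match are not given in the sources at hand. The values deposited by the authors are a normalized signal per miRNA, with TMM in the table's name. Every value was a whole multiple of 1 step per library (tolerance 1e-06 reads), which gave back the reads for 100% of values.

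limma 3.58.1 (R 4.3.3) was fitted to log2(value + 1) with a mean-variance trend, over rows with a mean of at least 1, and p-values were adjusted by Benjamini and Hochberg. Alternatives included edgeR 4.0.16 and DESeq2 1.42.0 on the recovered reads. The adjusted p of DESeq2 was undefined for 212 rows, among them miR-3656. The procedures were tested on simulated data that had the same spread in every library and no library unlike its group. Members and lists were chosen with earlier results of these data known. Named miRNAs were the 8 entries, the 3 nearest in pattern to each with a mean of at least 10, and of each further list the 2 most abundant and any called. The design text calls the replicates biological and independent.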

Additional observations from a re-analysis of the deposited data

How the results depend on the processing

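Over all miRNAs 9 were called. The count was 23 with no filter on low values, 44 by DESeq2, and between 0 and 41 when 1 library was left out, with 0 without SMARCA4 replicate 1 or empty vector replicate 1 and 41 without SMARCA4 replicate 2, where 103 to 167 had an unadjusted p under 0.05. Of the 8 entries 0 were called, and 1, miR-4532, by DESeq2 and without SMARCA4 replicate 2, so that leaving out 1 library gave between 0 and 1. Of 127 refits of single entries, 2 passed the threshold (both of miR-4532), 3 turned the sign of miR-1260b and the rest kept direction and side. The undefined adjusted p of miR-3656 by DESeq2 was counted as not passing. The log2 fold change of miR-1260b ranged from −0.23 to 0.13 with 1 library left out, and the positive values came without SMARCA4 replicate 2 (0.13), empty vector replicate 2 (0.04) or empty vector replicate 3 (0.11). The combined share of the 8 entries was 0.00919 percentage points higher in SMARCA4 libraries, and between −0.00894 and 0.0222 with 1 library left out. The cause of these differences was not tested. With the replicate block (the replicate number as a term) 13 miRNAs and 0 of the 8 entries were called. Deviations of same-numbered libraries correlated at 0.0731, 0.0882 and 0.0136, in each case the highest value for that empty vector library. SMARCA4 replicate 3, however, correlated better with empty vector replicate 1 (0.0492) than with its own number. These values do not settle whether the numbers pair the libraries, and the labels do not say. Depth limits miR-3656, miR-4532, miR-1246 and miR-4286, which rest on 12 to 147 reads over all libraries.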
